A study of Rattus norvegicus with 52 samples.

Results

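Transcript levels of 9 chemokine ligands and 1 chemokine receptor were followed through sorted mammary epithelial cells of the rat. The genes were *Ccl2*, *Ccl7*, *Ccl19*, *Ccl20*, *Ccl5*, *Cxcl1*, *Cxcl2*, *Cxcl12*, *Cx3cl1* and *Ccr7*. They were taken by symbol, and all 10 were found among the 17356 genes counted in each of 48 libraries. The study asked how loss of p27, the cell cycle inhibitor encoded by *Cdkn1b*, changes the mammary gland of the ACI rat, a strain prone to estrogen-induced mammary tumors. *Cdkn1b*-/- rats carried a small CRISPR-Cas9 deletion in the first coding exon, made in Sprague-Dawley zygotes and crossed onto ACI, and *Cdkn1b*+/+ rats were the controls. Glands were sorted from rats of an early and of a later backcross (6 generations), and the labels do not give the generation or the deletion of a library, so the share of Sprague-Dawley genome may differ between libraries. At 9 weeks, glands of virgin females had their lymph nodes removed and were sorted by flow cytometry, with antibodies to the endothelial antigen Cd31 and the leukocyte antigen Cd45 in the panel. The gates parted basal from luminal cells, and the latter into mature cells and into progenitors (LP) that bind the lectin peanut agglutinin (PNA+) or carry the integrin Cd49b (Cd49b+). Each population gave 2 libraries per genotype. Rats labelled 4 weeks gave basal and luminal cells (3 libraries each from *Cdkn1b*+/+, 2 basal and 3 luminal from *Cdkn1b*-/-), as did rats labelled 6 weeks (3 basal and 2 luminal from *Cdkn1b*+/+, 2 of each from *Cdkn1b*-/-). Titles of some of these rats hold numbers that may be finer ages. Under the 6-week label, library 1 of both *Cdkn1b*-/- cell types carries a lower number than all other libraries, so age may differ between genotypes. In a last experiment, ACI rats and rats of the tumor-resistant BN strain received an empty or a 17β-estradiol (E2) implant at 9 weeks of age for 3 weeks. Basal and luminal cells were then sorted from 2 ACI rats per treatment and from 1 BN pool per treatment, 12 libraries in all, and the labels give these rats no *Cdkn1b* genotype.

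Chemokines are small secreted or membrane-anchored proteins that direct the migration of leukocytes through G protein-coupled receptors. Inflammatory chemokines are induced by cytokines, tissue injury and microbial products, often through the transcription factor NF-κB, whereas homeostatic chemokines place cells in a tissue at rest. In the mammary gland they are known to draw in the macrophages that accompany duct growth and remodelling. *Ccl2* and *Ccl7* recruit monocytes, *Cxcl1* and *Cxcl2* recruit neutrophils, *Ccl20* recruits cells that carry Ccr6, and *Ccl5* recruits T cells and monocytes. *Cxcl12* is the ligand of Cxcr4 and of the scavenging receptor Ackr3, *Cx3cl1* is a membrane-anchored chemokine that can be shed, and *Ccl19* is a ligand of Ccr7, the receptor that guides dendritic cells and naive T cells to lymph nodes.

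Levels are given as CPM, the count of a gene scaled to the total of gene-assigned reads of its library, which can be compared for 1 gene between libraries but not between genes. The libraries held 7985619 to 33859550 gene-assigned reads each, and 3 counts came to between 0.0886 and 0.376 CPM, a floor that covers counting error only. Log2 fold changes with their standard errors (SE) and adjusted p-values are from quasi-likelihood fits in edgeR, with p-values adjusted by Benjamini-Hochberg over all genes tested and a call at an adjusted p under 0.05. Below, "edgeR adjusted p" stands for that value, and where a comparison has no call the number of genes called by DESeq2's Wald test is given too. The labels do not say whether all libraries of a group came from separate animals, so p-values measure the spread between these libraries. With few libraries per group a gene often separates by chance. Where groups are said not to overlap, the share of all genes that did so is not given. *Cdkn1b* lay between 1.59 and 4.24 CPM in the 8 *Cdkn1b*-/- libraries of 9 weeks and between 6.00 and 18 CPM in the 8 *Cdkn1b*+/+ libraries, with no overlap. The genotypes were also apart at 4 weeks, at 4.3 to 15.2 and 15.6 to 43.9 CPM, and overlapped at 6 weeks, at 11.1 to 30.2 and 3.13 to 46.3 CPM. Keratins and other defining markers followed the gates at 9 weeks, the summed basal markers lying between 19225 and 30131 CPM in basal libraries and between 240.2 and 2991 CPM in luminal ones. The leukocyte gene *Ptprc* stayed at or below 10.3 CPM in all 48 libraries. Other immune markers reached higher. The summed level of 4 leukocyte markers, *Ptprc* among them, reached 879 CPM, in *Cdkn1b*-/- luminal cells of 6 weeks. That of 15 myeloid markers reached 1596 CPM, in *Cdkn1b*-/- mature luminal cells of 9 weeks. In bulk samples like these, fewer cells of a type and less RNA per cell cannot be told apart.

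In *Cdkn1b*+/+ rats of 9 weeks, *Cxcl12* was higher in basal cells than in LP and than in mature luminal cells, and *Cxcl2* was lower in basal cells than in either. *Cxcl1* was lower in basal than in mature luminal cells, and *Ccr7* was higher in basal cells than in LP. Of the 10 genes, 2 were called higher and 1 lower in basal cells than in LP, beside 30.9% of the 12809 genes tested. Against mature luminal cells 1 was called higher and 2 lower, beside 20.9% of genes. Between LP and mature luminal cells 0 of 10 were called by edgeR, beside 11% of genes. An unadjusted p under 0.05 was reached by 3 of the 10, beside 3682 genes of all tested. DESeq2 called 2 of the 10, beside 2542 genes of all tested. Libraries of 1 genotype that share a number deviated together, and a fit with the number as a block called 7, 4 and 5 of the 10 in these comparisons. The shares above are of the fit without the block. That of all genes with the block is not given, so these counts cannot be set against it.

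*Cxcl12*, a homeostatic ligand, stood at 276 and 717 CPM in the 2 *Cdkn1b*+/+ basal libraries. In LP it stood at 91.2 and 135 CPM in Cd49b+ and at 70.0 and 121 CPM in PNA+ libraries, and in mature luminal cells at 20.5 and 53.1 CPM. Every basal library lay above every luminal library, and the mature luminal libraries lay below every LP library. The log2 fold change was 2.33 against LP (SE 0.48, edgeR adjusted p = 0.0030) and 3.57 against mature luminal cells (SE 0.64, adjusted p = 0.0019). Without basal library 2, the first became 1.41 with an adjusted p of 0.0834. LP lay above mature luminal cells by 1.24 (SE 0.53, adjusted p = 0.143), which passed with the replicate block (1.38, adjusted p = 0.0179). In *Cdkn1b*-/- rats the same order held for the group means, with 502 and 354 CPM in basal cells, 42.3, 106, 41.1 and 28.2 CPM in LP, and 22.6 and 27.6 CPM in mature luminal cells.

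The neutrophil-attracting ligands ran the other way. *Cxcl2* stood at 54.0 and 51.9 CPM in *Cdkn1b*+/+ basal libraries, at 452, 279, 387 and 323 CPM in LP and at 625 and 428 CPM in mature luminal libraries. Over both genotypes the highest basal library stood at 99.4 CPM and the lowest luminal library at 102 CPM. Basal cells were lower than LP by a log2 fold change of -2.71 (SE 0.88, edgeR adjusted p = 0.0332) and lower than mature luminal cells by -3.48 (SE 0.97, adjusted p = 0.0219). After the LP libraries of 1 number were summed, only 1 member was called between basal cells and LP. *Cxcl12* and *Cxcl2* thus did not both pass in that setting. *Cxcl1* stood at 1179.7 and 1351 CPM in basal, at 3455, 4644, 3689 and 4581 CPM in LP and at 5220.1 and 6555 CPM in mature luminal libraries of *Cdkn1b*+/+ rats. The 3 populations did not overlap. Its log2 fold change was -2.40 in basal against mature luminal cells (SE 0.72, adjusted p = 0.0296) and -1.64 against LP (SE 0.64, adjusted p = 0.0673, and 0.000475 with the block). With 2 basal libraries, leaving out either one ended these calls of *Cxcl1* (adjusted p = 0.0906 and 0.163) and of *Cxcl2* (0.143 and 0.144 against LP, 0.0914 and 0.125 against mature luminal cells), while the sign held. The calls against mature luminal cells also ended without either mature luminal library for *Cxcl1* (adjusted p = 0.0570 and 0.116) and without mature luminal library 1 for *Cxcl2* (0.0685), and that of *Cxcl2* against LP ended without Cd49b+ library 1 (0.0548). Summed levels of 8 immediate early genes, such as *Fos* and *Jun*, which respond to tissue dissociation, lay between 16915 and 19125 CPM in these basal libraries and between 27748 and 33576 CPM in the luminal ones. Their part in the difference was not tested.

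*Cxcl1* and *Cxcl2* lie next to each other on chromosome 14 in the RefSeq annotation of GRCr8, as *Ccl2* and *Ccl7* do on chromosome 10. Over the 16 libraries of 9 weeks, Pearson's r of the log2 levels was 0.960 for *Cxcl1* and *Cxcl2* and 0.994 for *Ccl2* and *Ccl7*. These are descriptions over libraries that share populations and may share animals. The count of *Ccl2* was 4.22 to 5.75 times that of *Ccl7* in every library of 9 weeks, and 2.78 to 29.4 times over all 48. *Cxcl1* had 7.64 to 38.4 times the count of *Cxcl2* at 9 weeks and 5.75 to 607 times over all 48, and the 2 pairs therefore moved less closely at other ages and in the E2 experiment. The promoters are shown because NF-κB is the known inducer of the inflammatory members. RefSeq promoters (250 bases before to 50 after the start of a gene) were matched for 7 of the 10 genes. The following 140 bases end just before the start of each gene, with matches to the NF-κB consensus and to TATAAA in capitals.
Cxcl1, chr14:17479322-17479461, minus strand: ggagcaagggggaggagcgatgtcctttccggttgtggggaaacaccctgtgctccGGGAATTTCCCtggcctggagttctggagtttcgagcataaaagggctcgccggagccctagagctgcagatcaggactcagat
Cxcl2, chr14:17467256-17467395, minus strand: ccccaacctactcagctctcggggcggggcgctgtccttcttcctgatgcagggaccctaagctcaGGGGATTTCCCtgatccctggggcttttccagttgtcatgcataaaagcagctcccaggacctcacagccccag
Ccl20, chr9:91837019-91837158, plus strand: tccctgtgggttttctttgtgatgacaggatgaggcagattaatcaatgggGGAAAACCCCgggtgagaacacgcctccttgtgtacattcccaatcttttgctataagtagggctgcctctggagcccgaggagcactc
Ccl7, chr10:67513955-67514094, plus strand: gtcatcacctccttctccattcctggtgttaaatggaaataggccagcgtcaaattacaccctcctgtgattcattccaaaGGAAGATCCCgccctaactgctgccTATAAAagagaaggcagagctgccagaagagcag
The NF-κB consensus, searched on both strands, was found in 7.51% of 33469 promoters of the same length. *Cxcl1* held it at positions -84 to -75 and -83 to -74, on opposite strands of 1 stretch, and *Cxcl2* at -74 to -65 and -73 to -64, again overlapping. *Ccl20* held it at -89 to -80 and *Ccl7* at -59 to -50. TGANTCA, the AP-1 motif, was in 7.33% of promoters and among these genes in that of *Ccl7*, at -73 to -67. TATAAA, searched on the strand of the gene alone, was in 8.8% of promoters and among these genes in those of *Ccl7*, at -34 to -29, and *Cx3cl1*, at -78 to -73. None of these letters were found in the promoters of *Cxcl12* and *Ccl19*. A match describes the letters of the sequence and not a site in use.

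**Figure D1:**
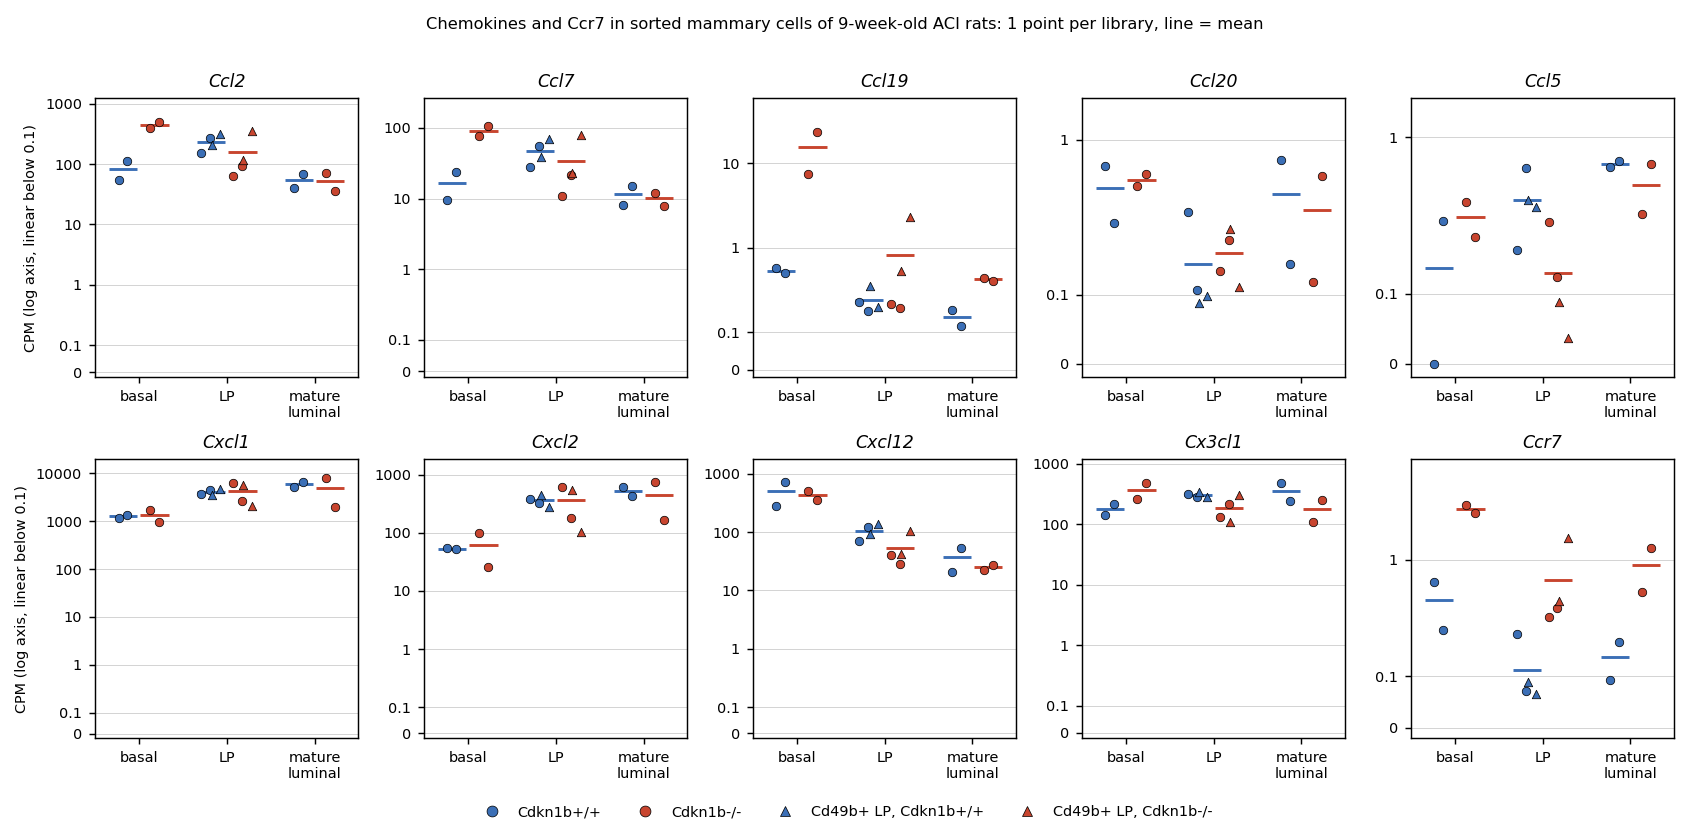
Level of each gene at 9 weeks in CPM (log axis, linear below 0.1), by population on the horizontal axis, with 1 point per library, *Cdkn1b*+/+ in blue, *Cdkn1b*-/- in red, triangles for Cd49b+ LP and a line at the mean. Basal points of *Cxcl12* lie above the luminal points and those of *Cxcl2* below them, and the red points of *Ccr7* lie above the blue points within each population.

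The monocyte-attracting pair was highest in LP among *Cdkn1b*+/+ populations. *Ccl2* stood at 204 and 311 CPM in Cd49b+ and at 151 and 268 CPM in PNA+ libraries, at 53.9 and 114 CPM in basal libraries and at 39.6 and 67.9 CPM in mature luminal libraries. LP did not overlap either of the others, and basal and mature luminal cells overlapped. *Ccl7* stood at 38.5, 69.1, 28.3 and 55.6 CPM in LP, 9.59 and 23.6 CPM in basal and 8.03 and 15.2 CPM in mature luminal libraries. LP was higher than mature luminal cells by 1.87 for *Ccl2* (SE 0.60, edgeR adjusted p = 0.0598) and by 1.79 for *Ccl7* (SE 0.65, adjusted p = 0.0892), and the block gave 0.0163 and 0.0191. Basal cells were lower than LP by -1.40 for *Ccl2* (SE 0.58, adjusted p = 0.0817) and -1.45 for *Ccl7* (SE 0.64, adjusted p = 0.0987), and the block gave 0.0275 and 0.0229. The summed level of 6 endothelial markers, such as *Pecam1* and *Cdh5*, moved with both genes in the luminal libraries. It was 438, 594, 305 and 556 CPM in *Cdkn1b*+/+ LP, 67.5 and 64.8 CPM in *Cdkn1b*+/+ mature luminal cells, 148, 644, 70.3 and 168 CPM in *Cdkn1b*-/- LP and 52.1 and 38.6 CPM in *Cdkn1b*-/- mature luminal cells. Across these 12 libraries, which may share animals, r of its log2 level was 0.967 with *Ccl2*, 0.966 with *Ccl7* and -0.324 with *Cxcl1*. Its part in the levels of *Ccl2* was not tested.

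**Figure D2:**
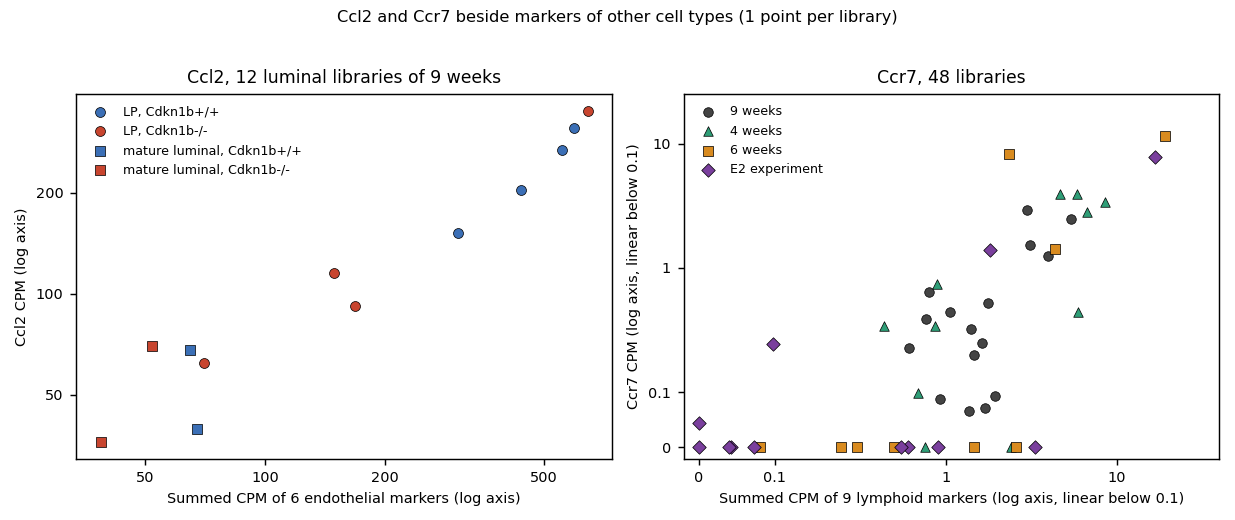
The left panel sets *Ccl2* against the summed CPM of 6 endothelial markers in the 12 luminal libraries of 9 weeks (both axes log, symbols by population and genotype), and the right panel sets *Ccr7* against the summed CPM of 9 lymphoid markers in all 48 libraries (both axes log, linear below 0.1). The *Ccl2* points rise along a band with r = 0.967, and the *Ccr7* points above 1 CPM sit at lymphoid sums of 1.82 CPM or more.

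*Cx3cl1*, the membrane-anchored ligand, stood at 141 and 216 CPM in *Cdkn1b*+/+ basal libraries, at 340.1, 277, 316 and 278 CPM in LP and at 476 and 240.1 CPM in mature luminal libraries. Its basal libraries were the lowest 2, and its log2 fold change was -1.15 against mature luminal cells (SE 0.43, edgeR adjusted p = 0.0771, and 0.00667 with the block). Against LP it was called with the block alone (-0.67, adjusted p = 0.0332). *Ccl19*, *Ccl20* and *Ccl5* rested on 0 to 18 counts per library in *Cdkn1b*+/+ rats of 9 weeks. *Ccl19* lay between 0.502 and 0.568 CPM in basal cells and between 0.118 and 0.354 CPM in luminal ones, with log2 fold changes of 1.22 against LP (SE 0.79, adjusted p = 0.258) and 1.63 against mature luminal cells (SE 1.02, adjusted p = 0.292). *Ccl20* lay between 0.0884 and 0.743 CPM and differed by 1.62 between basal cells and LP (SE 0.76, adjusted p = 0.117) and by -1.65 between LP and mature luminal cells (SE 0.77, adjusted p = 0.176). *Ccl5* lay between 0 and 0.711 CPM and differed by -1.36 between basal cells and LP (SE 1.00, adjusted p = 0.314), by -2.36 between basal and mature luminal cells (SE 1.10, adjusted p = 0.147) and by -1.0 between LP and mature luminal cells (SE 0.84, adjusted p = 0.457). The receptor *Ccr7* had 17 and 6 counts in basal libraries (0.644 and 0.251 CPM) and 2 to 6 counts in LP (0.0656 to 0.228 CPM). Its difference of 1.98 (SE 0.70, adjusted p = 0.0449) was not called after summing the PNA+ and Cd49b+ libraries of 1 number (1.92, adjusted p = 0.112), nor with no filter on low counts (1.99, adjusted p = 0.0532), nor without any 1 of basal library 1, both Cd49b+ libraries and PNA+ library 2 (adjusted p from 0.0880 to 0.364). Against mature luminal cells *Ccr7* differed by 1.37 (SE 0.84, adjusted p = 0.281).

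Over the 8 LP libraries, PNA+ and Cd49b+ cells were compared with genotype as a term. Of the 9 genes tested 0 were called by edgeR, beside 0% of 11725 genes, with 1 at an unadjusted p under 0.05 and 0 called by DESeq2, which called 41 genes of all tested. That gene was *Ccl19*, at 0.532 and 2.31 CPM in Cd49b+ and 0.215 and 0.193 CPM in PNA+ libraries of *Cdkn1b*-/- rats (log2 fold change -1.56, SE 0.66, adjusted p = 1.00). Most of that difference lay in Cd49b+ library 2, which also held 2991 CPM of summed basal markers, beside 310.3 to 1006 CPM in the other LP libraries.

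The genotypes were compared within each population to ask what loss of p27 changes. In basal cells of 9 weeks, 5 of the 10 genes lay higher in *Cdkn1b*-/- rats without overlap between genotypes, *Ccl2*, *Ccl7*, *Ccl19*, *Cx3cl1* and *Ccr7*. With 2 libraries on each side a gene often separates by chance, and the share of all genes that did so is not given. The study itself names *Ccl2*, *Ccl7*, *Ccl19* and *Ccr7* as overexpressed in *Cdkn1b*-/- basal cells, from these same libraries. Its threshold was another, DESeq2 with a p-value under 0.05 and a log2 fold change over 1, and its methods name no adjustment. The other 5 overlapped, and the sign of the fitted difference turned with 1 library left out for *Cxcl12* (-0.55 to 0.94), *Cxcl2* (-0.82 to 1.18), *Cxcl1* (-0.14 to 0.70) and *Ccl20* (-0.00062 to 1.09). Of the 10, 0 were called by edgeR, beside 0.0546% of the 12809 genes tested. An unadjusted p under 0.05 was reached by 5 of the 10, beside 1164 genes of all tested. DESeq2 called 4 of the 10, beside 168 genes of all tested. *Ccl2* stood at 400.4 and 491 CPM in *Cdkn1b*-/- basal libraries, beside 53.9 and 114 CPM in *Cdkn1b*+/+ ones. *Ccl7* stood at 77.7 and 105 CPM, beside 9.59 and 23.6 CPM. *Ccl19* stood at 7.39 and 23.3 CPM, beside 0.568 and 0.502 CPM, which was the largest fold among the 10. In each case the lower *Cdkn1b*-/- library lay above the higher *Cdkn1b*+/+ library. The log2 fold changes were 2.64 for *Ccl2* (SE 0.67, edgeR adjusted p = 0.261), 2.69 for *Ccl7* (SE 0.73, adjusted p = 0.315) and 5.07 for *Ccl19* (SE 0.95, adjusted p = 0.105). DESeq2 gave adjusted p-values of 0.0112, 0.0209 and 1.38e-05 for them. *Cx3cl1*, with 257 and 475 CPM beside 141 and 216 CPM, differed by 1.27 (SE 0.43, adjusted p = 0.390), and *Ccl5*, with 10 and 5 counts beside 0 and 7, by 1.31 (SE 1.12, adjusted p = 0.778).

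The *Cdkn1b*-/- basal libraries also held more RNA of some leukocyte markers. The summed level of 4 leukocyte markers, such as *Ptprc* and *Cd74*, was 235 and 279 CPM in *Cdkn1b*-/- and 98.3 and 174 CPM in *Cdkn1b*+/+ basal libraries, and that of 9 lymphoid markers was 2.99 and 5.43 CPM beside 0.796 and 1.63 CPM. These did not overlap, nor did the sums of 4 adipocyte markers (17.7 to 21.8 CPM beside 3.03 to 7.06 CPM). The sums of 15 myeloid markers (212 to 341 CPM beside 71.1 to 232 CPM) and of 5 dendritic markers (89.9 to 119 CPM beside 39.1 to 95.2 CPM) overlapped. So did the endothelial sums (102 and 73.1 CPM beside 56.2 and 95.2 CPM) and the fibroblast sums (1147 and 752 CPM beside 212 and 1120 CPM). The part of these cells in the genotype difference was not tested.

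In LP, *Ccr7* was called higher in *Cdkn1b*-/- rats, and it was the only 1 of the 10, beside 3.4% of 12809 genes. It stood at 0.443 and 1.53 CPM in Cd49b+ and 0.323 and 0.385 CPM in PNA+ libraries of *Cdkn1b*-/- rats, and at 0.0884, 0.0656, 0.228 and 0.0712 CPM in those of *Cdkn1b*+/+ rats. These levels rest on 9 to 41 counts beside 2 to 6 counts, and the genotypes did not overlap. The log2 fold change was 2.73 (SE 0.60, edgeR adjusted p = 0.0263). The 4 LP libraries of a genotype carry 2 numbers, and after summing those that share one the difference was 2.72 with an adjusted p of 0.448. The call was also lost without *Cdkn1b*+/+ Cd49b+ library 1 (0.0827), Cd49b+ library 2 (0.0891) or PNA+ library 2 (0.0948). *Ccr7* was higher without overlap in basal cells too (2.92 and 2.48 beside 0.644 and 0.251 CPM, log2 fold change 2.84, SE 0.76, adjusted p = 0.307) and in mature luminal cells (0.524 and 1.26 beside 0.0928 and 0.197 CPM, log2 fold change 2.66, SE 0.83, adjusted p = 0.368). Its ligand *Ccl19* stood at 0.532, 2.31, 0.215 and 0.193 CPM in *Cdkn1b*-/- LP beside 0.354, 0.197, 0.228 and 0.178 CPM (1.93, SE 0.66, adjusted p = 0.135). The last 2 values of each genotype are PNA+ libraries, which were alike. With 1 library left out the LP difference ran from 0.81 to 2.24. Cd49b+ library 2 of *Cdkn1b*-/- rats, highest in LP for both genes, also held 2991 CPM of summed basal markers. In mature luminal cells *Ccl19* stood at 0.443 and 0.404 beside 0.186 and 0.118 CPM (1.64, SE 1.04, adjusted p = 0.870). The LP groups of *Ccl19* overlapped and the mature luminal ones, at 3 to 11 counts, did not. In mature luminal cells 0 of 10 were called by edgeR, beside 0.133% of genes, with 1 at an unadjusted p under 0.05 and 0 called by DESeq2, which called 164 genes in all.

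*Ccr7* moved with the lymphoid sum, the only list of immune markers set beside it over all libraries. The 13 of 48 libraries with more than 1 CPM of *Ccr7* had lymphoid sums of 1.82 to 19.1 CPM (median 4.66), and the other 35 had 0 to 5.96 CPM (median 0.796). As a description, r of the log2 levels was 0.636 over the 16 libraries of 9 weeks, 0.692 over 11 of 4 weeks, 0.770 over 9 of 6 weeks and 0.678 over 12 of the E2 experiment. At 9 weeks the lymphoid sums of LP overlapped between genotypes, from 0.771 to 3.10 CPM in *Cdkn1b*-/- and from 0.607 to 1.71 CPM in *Cdkn1b*+/+ libraries. In the same LP libraries, leukocyte sums (45.9 to 100 CPM beside 89.1 to 195 CPM) and dendritic sums (46.1 to 101 CPM beside 75.3 to 121 CPM) reached lower in *Cdkn1b*-/- rats. Myeloid sums reached higher (515 to 1348 CPM beside 293 to 767 CPM), and all of these ranges overlapped. The part of lymphoid cells in the *Ccr7* call was not tested.

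**Figure D3:**
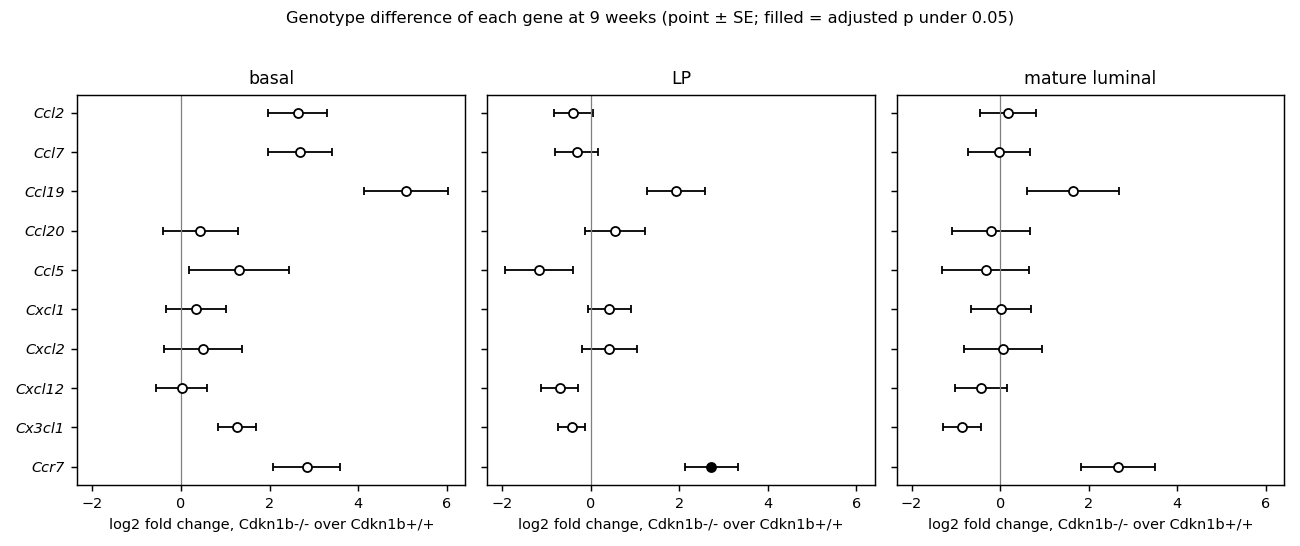
Log2 fold change of each gene between *Cdkn1b*-/- and *Cdkn1b*+/+ libraries of 9 weeks in basal cells, LP and mature luminal cells (horizontal axis, point ± SE from the edgeR fit, filled where the adjusted p is under 0.05). The single filled point is *Ccr7* in LP, at 2.73, and *Ccl2*, *Ccl7*, *Ccl19* and *Ccr7* lie above 2 in basal cells.

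Other members of LP had smaller genotype differences. *Ccl2* stood at 115, 352, 62.4 and 92.3 CPM and *Ccl7* at 23.1, 79.7, 11 and 21.9 CPM in *Cdkn1b*-/- LP, in both cases overlapping the *Cdkn1b*+/+ libraries. *Cxcl1* stood at 5777, 2054, 6351 and 2708 CPM in *Cdkn1b*-/- LP, at 1709 and 981 CPM in basal and at 7999 and 2014 CPM in mature luminal cells, with number 1 above number 2 in each population. *Cxcl2* split the same way, with 547, 102, 623 and 178 CPM in LP, 99.4 and 25.6 CPM in basal and 747 and 164 CPM in mature luminal cells. *Ccl5* differed by -1.17 in LP (SE 0.77, edgeR adjusted p = 0.453) on 1 to 18 counts. *Cx3cl1* stood at 109, 299, 129 and 213 CPM in LP and 108 and 248 CPM in mature luminal cells of *Cdkn1b*-/- rats, overlapping *Cdkn1b*+/+ in both. *Ccl20* stayed between 0.112 and 0.598 CPM in all *Cdkn1b*-/- libraries of 9 weeks.

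The difference between the genotype effects of basal and luminal cells was tested itself. Against LP, 0 of 10 were called by edgeR, beside 0% of 12809 genes, with 4 at an unadjusted p under 0.05 and 1 called by DESeq2, which called 82 genes in all. The effect in basal cells exceeded that in LP by a log2 of 3.03 for *Ccl2* (SE 0.79, edgeR adjusted p = 0.473), 3.0 for *Ccl7* (SE 0.87, adjusted p = 0.528), 3.14 for *Ccl19* (SE 1.10, adjusted p = 0.589), 1.70 for *Cx3cl1* (SE 0.53, adjusted p = 0.570) and 2.49 for *Ccl5* (SE 1.36, adjusted p = 0.751). Without *Cdkn1b*-/- Cd49b+ library 2, 3 of these passed, *Ccl2* at 3.63 (adjusted p = 0.0289), *Ccl7* at 3.67 (0.0349) and *Ccl19* at 4.26 (0.0303). Against mature luminal cells, 0 of 10 were called by edgeR, beside 0% of genes, with 4 at an unadjusted p under 0.05 and 0 called by DESeq2, which called 5 genes in all. The excess was 2.46 for *Ccl2* (SE 0.90), 2.72 for *Ccl7* (SE 1.00), 3.43 for *Ccl19* (SE 1.41), 2.14 for *Cx3cl1* (SE 0.61) and 1.64 for *Ccl5* (SE 1.49), each with an adjusted p of 1.00.

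Other genes of the pathway were read from lists of 28 further ligands, 22 further receptors and 20 NF-κB pathway and target genes. In basal cells of 9 weeks, 18 of 22 ligands tested lay higher in *Cdkn1b*-/- rats (median log2 fold change 1.18), as did 7 of 8 receptors (median 0.37) and 16 of 16 NF-κB genes (median 0.67), beside a median of 0.0026 over all genes tested, and 0 in each list were called. In LP, 12 of 22 ligands and 8 of 16 NF-κB genes lay higher, and 2 of the latter were called, beside 3.4% of all genes tested. *Birc3*, an inhibitor of apoptosis induced by NF-κB, ranged from 229 to 347 CPM in *Cdkn1b*-/- LP and from 113 to 189 CPM in *Cdkn1b*+/+ LP (1.29, SE 0.23, edgeR adjusted p = 0.00935). *Tnfaip2*, induced by tumor necrosis factor, ranged from 68.9 to 79.0 CPM beside 9.32 to 32.2 CPM (2.27, SE 0.55, adjusted p = 0.0387). Neither gene overlapped between genotypes in LP.

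Between *Cdkn1b*+/+ populations several further genes were called. Basal cells differed from LP in 6 of 22 ligands, 2 higher and 4 lower, in 1 of 8 receptors and in 8 of 16 NF-κB genes, 5 higher and 3 lower, beside 30.9% of all genes tested. *Cxcl14*, a homeostatic chemokine of epithelia, ranged from 588 to 830 CPM in basal cells and from 6.91 to 32.1 CPM in LP (5.38, SE 0.84, edgeR adjusted p = 0.000504). *Ackr3*, the scavenging receptor for Cxcl12, ranged from 150 to 166 CPM in basal cells, from 22.6 to 55.6 CPM in LP and from 10.1 to 14.0 CPM in mature luminal cells (2.03 against LP, SE 0.63, adjusted p = 0.0254, and 3.53 against mature luminal cells, SE 0.83, adjusted p = 0.00884). Ligand and scavenger were thus both highest in basal cells. *Cxcl6*, a further neutrophil ligand, stayed at or below 0.209 CPM in basal cells and ranged from 0.884 to 2.10 CPM in LP (-2.93, SE 0.75, adjusted p = 0.0104), and *Ccl27* was called higher in basal cells (1.98, SE 0.45, adjusted p = 0.00512). Of the NF-κB genes, the inhibitor-like *Nfkbiz* was lower in basal cells (-2.40, SE 0.27, adjusted p = 6.03e-05), and *Birc3* (1.58, SE 0.26, adjusted p = 0.000811) and *Nfkb2* (0.96, SE 0.21, adjusted p = 0.00427) were higher. Against mature luminal cells, 2 of 22 ligands were called higher and 4 lower, beside 20.9% of all genes tested. *Cxcl14* (6.28, SE 1.18, adjusted p = 0.00249) was among the former and *Cxcl17* (-3.35, SE 0.81, adjusted p = 0.00986) and *Cxcl6* (-3.21, SE 0.81, adjusted p = 0.0127) among the latter. Of 16 NF-κB genes 3 were called in each direction, *Birc3* among the higher (1.80, SE 0.33, adjusted p = 0.00205) and *Nfkbiz* (-1.58, SE 0.28, adjusted p = 0.00176) and *Nfkbia* (-1.18, SE 0.26, adjusted p = 0.00659) among the lower. LP exceeded mature luminal cells in 2 NF-κB genes, beside 11% of all genes tested, *Il6* (2.45, SE 0.56, adjusted p = 0.0220), at 89.1 to 161 CPM beside 19.3 to 21.5 CPM, and *Nfkbiz* (0.82, SE 0.25, adjusted p = 0.0484). They fell below them in the ligand *Ccl25* (-3.24, SE 0.98, adjusted p = 0.0487). *Ccl13*, which the study names and which was on the list of further ligands, is given no values here.

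For a member of each kind, the 3 genes whose log2 CPM followed it best over the 16 libraries of 9 weeks were ranked among 8788 genes. For *Ccl2* they were *Kcnj8* (r = 0.968), *Spsb1* (0.955) and *Adamts4* (0.952). *Cxcl12* was followed by *Tspan9* (0.984), *Dkk3* (0.973) and *Mprip* (0.972). *Cxcl1* was followed by *Tm9sf4* (0.976), *Slc5a1* (0.968) and *Ppif* (0.966), and *Ccr7* by *Surf6* (0.920), *Malsu1* (0.891) and *Prkrip1* (0.890). These are descriptions over libraries that may share animals.

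In younger *Cdkn1b*+/+ rats, basal and luminal cells were compared at 4 and at 6 weeks. At 4 weeks, of the 9 members tested, 4 were called higher and 1 lower in basal cells, beside 23.5% of the 12082 genes tested. *Cxcl12* stood at 966, 878 and 892 CPM in basal and 119.7, 219.8 and 291 CPM in luminal libraries (2.19, SE 0.32, edgeR adjusted p = 0.000297). *Cxcl2* stood at 22, 5.99 and 47.1 CPM in basal and 309, 485 and 676 CPM in luminal libraries (-4.23, SE 0.71, adjusted p = 0.000762). The directions of these 2 genes were those of 9 weeks. *Ccl2* and *Ccl7*, by contrast, were higher in basal than in luminal cells at this age, but these luminal cells were not divided into LP and mature cells. Endothelial sums were 2.38 to 22.3 CPM in these luminal libraries, beside 305 to 594 CPM in *Cdkn1b*+/+ LP of 9 weeks. Their part in the contrast with 9 weeks was not tested. *Ccl2* stood at 415, 176 and 149.8 CPM in basal and 13.9, 16.8 and 36.6 CPM in luminal libraries (3.52, SE 0.62, adjusted p = 0.00105). *Ccl7* stood at 35.2, 56.0 and 53.8 CPM beside 3.47, 2.71 and 6.55 CPM (3.55, SE 0.54, adjusted p = 0.000361). *Ccl19* had 14, 50 and 22 counts in basal and 0, 1 and 6 counts in luminal libraries (3.75, SE 0.96, adjusted p = 0.0120). None of these 5 genes overlapped, and the share of all genes that did not is not given. The *Ccl19* call was lost without basal library 2 (adjusted p = 0.0529), without luminal library 2 (0.0561) and in a joint fit with 6 weeks (0.172).

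*Cx3cl1* and *Cxcl1* were lower in basal cells of 4 weeks at an unadjusted p under 0.05. *Cx3cl1* stood at 130.1, 278 and 391 CPM in basal and 454, 879 and 991 CPM in luminal libraries (-1.47, SE 0.60, edgeR adjusted p = 0.103), and *Cxcl1* at 4147, 1772 and 2807 CPM beside 6978, 5586 and 7572 CPM (-1.18, SE 0.52, adjusted p = 0.133). Neither overlapped, and with the animal as a block they passed at 0.00223 and 0.00702. *Ccl20*, at 6.65, 2.63 and 1.48 CPM beside 1.24, 0.964 and 1.87 CPM, differed by 1.43 (SE 0.64, adjusted p = 0.133). *Ccr7* was unequal within luminal cells, at 0.0991, 3.91 and 2.82 CPM beside 0.340, 0.736 and 0.438 CPM in basal cells (-2.05, SE 1.39, adjusted p = 0.347), and the 2 luminal libraries with most of it had lymphoid sums of 5.9 and 6.68 CPM beside 0.694 CPM in the other. *Ccl5* had at most 8 counts in any library of 4 weeks and was not tested. Of 18 further ligands tested, 3 were called higher and 6 lower in basal cells, and of 6 receptors 2 were called higher, beside the same 23.5% of genes. Among them, *Cxcl14* (8.23, SE 0.50, adjusted p = 1.08e-06), *Ackr3* (4.22, SE 0.35, adjusted p = 6.11e-06), *Cxcl9* (4.73, SE 0.63, adjusted p = 0.000138) and *Cxcr4* (1.79, SE 0.58, adjusted p = 0.0417) were higher in basal cells and *Cxcl6* (-4.08, SE 0.58, adjusted p = 0.000226) was lower. *Icam1* (1.76, SE 0.32, adjusted p = 0.00147) and *Il6* (1.76, SE 0.51, adjusted p = 0.0235) were the NF-κB genes called higher and *Bcl3* (-1.80, SE 0.38, adjusted p = 0.00351) the 1 called lower, of 16 tested.

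At 6 weeks *Cxcl12* was again higher in basal cells, at 346, 180.4 and 242 CPM beside 31.9 and 15.0 CPM in luminal libraries (3.52, SE 0.59, edgeR adjusted p = 0.0205). It was the single member called of 9 tested, beside 2.43% of the 11921 genes tested, and the call was lost without basal library 1 (0.0599), luminal library 1 (0.0866) or luminal library 2 (0.141). *Ccl2* stood at 143, 67.4 and 212 CPM beside 16.6 and 5.55 CPM (3.76, SE 1.28, adjusted p = 0.179) and *Ccl7* at 24.4, 19.3 and 30.1 CPM beside 2.63 and 1.14 CPM (3.80, SE 1.31, adjusted p = 0.183). *Cx3cl1* stood at 102, 35.1 and 58.7 CPM beside 779 and 197 CPM (-2.82, SE 0.75, adjusted p = 0.0916), and *Cxcl2* at 174, 47.0 and 98.6 CPM beside 854 and 492 CPM (-2.60, SE 0.73, adjusted p = 0.107). None of these 5 overlapped, and the share of all genes that did not is not given. DESeq2 called all 5, beside 1522 genes of all tested. *Cxcl1* stood at 7949, 2695 and 8367 CPM beside 8520.0 and 5617 CPM and overlapped. *Ccl19* had 22, 52 and 0 counts beside 0 and 6 (2.81, SE 2.48, adjusted p = 0.610). *Ccl20* rested on 1 luminal library, with 81.4 and 0.228 CPM beside 12, 5.86 and 25.8 CPM in basal cells (-1.36, SE 1.66, adjusted p = 0.730). *Ccr7* had 0 counts in the 3 basal libraries and 0 and 108 counts in the luminal ones, so that basal cells were at least 57.6-fold lower in pooled counts, with 3 counts taken over the basal group, a bound that rests on 1 luminal library. *Cxcl14* (7.64, SE 1.6, adjusted p = 0.0425), *Cxcl10* (3.70, SE 0.80, adjusted p = 0.0464) and *Ackr3* (6.16, SE 1.03, adjusted p = 0.0208) were higher in basal cells and *Bcl3* was lower (-2.39, SE 0.50, adjusted p = 0.0431).

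**Figure D4:**
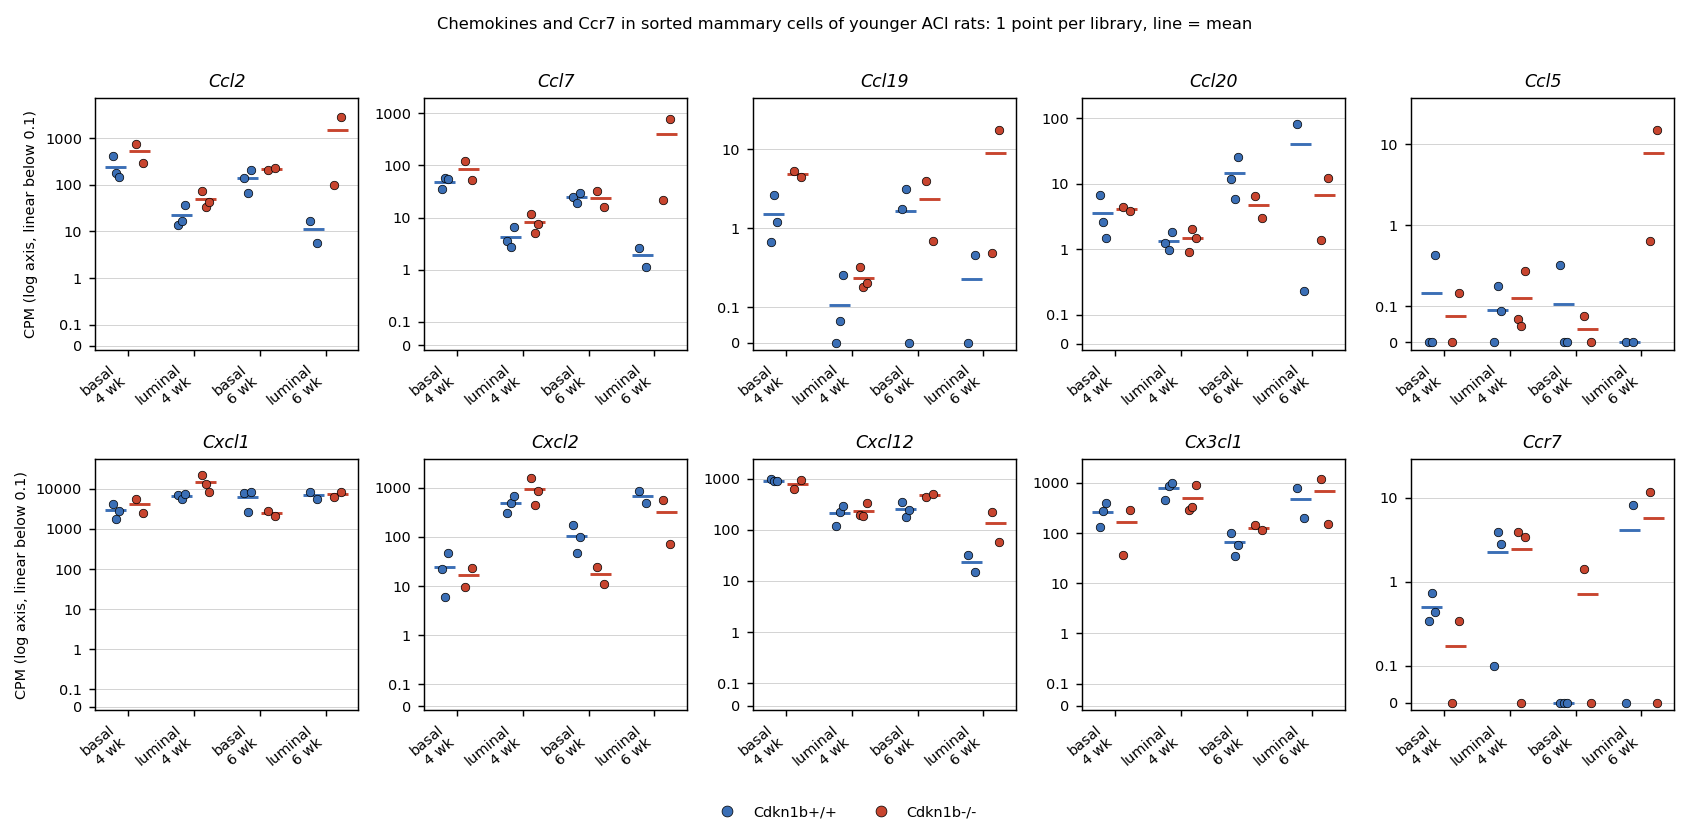
Level of each gene at 4 and 6 weeks in CPM (log axis, linear below 0.1), by cell type and age on the horizontal axis, with 1 point per library, *Cdkn1b*+/+ in blue, *Cdkn1b*-/- in red and a line at the mean. Basal points of *Cxcl12* lie above the luminal points of *Cdkn1b*+/+ rats at both ages, and 1 red luminal point of 6 weeks stands apart for *Ccl2* (2872 CPM), *Ccl7* (773 CPM), *Ccl19* (17.7 CPM) and *Ccl5* (14.9 CPM).

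Libraries of 4 and of 6 weeks came from separate rats, and the labels do not give their sequencing runs. An age difference thus cannot be told apart from a difference between runs. *Cxcl12* was lower at 6 than at 4 weeks in both cell types of *Cdkn1b*+/+ rats. In basal cells it was the single 1 of 10 called, beside 10.5% of the 12572 genes tested, with a log2 fold change of -1.68 (SE 0.39, edgeR adjusted p = 0.0125). In luminal cells it was again the single 1 called, beside 3.1% of genes, at -3.13 (SE 0.49, adjusted p = 0.00430), and the call was lost without luminal library 1 of 6 weeks (adjusted p = 0.0899). Neither cell type overlapped between ages. The summed level of 6 fibroblast markers was lower at 6 weeks too, at 31.1 to 138 CPM beside 360.0 to 2146 CPM at 4 weeks in basal cells and at 15.6 to 20.0 CPM beside 54.0 to 214 CPM in luminal cells. In basal cells so was that of 8 basal markers, at 5527 to 8451.99 CPM beside 14722 to 15412 CPM. None of these ranges overlapped, and the part of the cells they mark in the lower level of *Cxcl12* was not tested. *Cxcl2* differed by 2.24 in basal cells (SE 0.72, adjusted p = 0.0529), with overlapping libraries, and passed when basal library 3 of 4 weeks (0.0435) or basal library 2 of 6 weeks (0.0489) was left out. *Cx3cl1* differed by -1.88 (SE 0.69, adjusted p = 0.0846), *Cxcl1* by 1.29 (SE 0.54, adjusted p = 0.128) and *Ccl20* by 2.20 (SE 1.21, adjusted p = 0.248) in basal cells. *Ccr7*, at 0 counts in the 3 basal libraries of 6 weeks, was at least 6.15-fold lower than at 4 weeks. In luminal cells *Ccl20* differed by 4.86 (SE 1.41, adjusted p = 0.0640), which rested on the library with 81.4 CPM and turned to -2.49 without it. *Ccl2* (-1.01, SE 0.97, adjusted p = 0.591), *Ccl7* (-1.18, SE 0.98, adjusted p = 0.528), *Ccl19* (1.15, SE 1.74, adjusted p = 0.757) and *Ccr7* (1.01, SE 2.13, adjusted p = 0.838) did not pass, and *Ccl5* had at most 3 counts. Of these, *Ccl7* alone did not overlap between the ages. Libraries of the 2 ages had summed immediate early genes of 20028 to 35529 CPM at 4 weeks and 5242 to 10517 CPM at 6 weeks in *Cdkn1b*+/+ rats, without overlap, and their part in these differences was not tested. *Cxcl16* (1.5, SE 0.39, adjusted p = 0.0227) and *Nfkb2* (1.94, SE 0.61, adjusted p = 0.0489) were higher at 6 weeks and *Bcl3* was lower (-1.43, SE 0.42, adjusted p = 0.0384) in basal cells. *Ccl9* was called as well (adjusted p = 0.0237), with 0 counts in the 3 basal libraries of 4 weeks and 0 to 82.3 CPM in those of 6 weeks. In luminal cells *Ackr3* was lower at 6 weeks (-3.19, SE 0.67, adjusted p = 0.0182) and *Birc3* was higher (2.29, SE 0.46, adjusted p = 0.0141).

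In *Cdkn1b*-/- rats, 2 members were called between the ages in luminal cells, beside 0.318% of genes. These were *Ccl2*, which stood at 74.8, 33.7 and 42.5 CPM at 4 weeks and at 100.1 and 2872 CPM at 6 weeks (4.97, SE 1.01, edgeR adjusted p = 0.0362), and *Ccl7*, at 11.8, 5.11 and 7.43 CPM and then 21.5 and 773 CPM (5.71, SE 1.00, adjusted p = 0.0190). Both ranges were apart, but the size rested on luminal library 2 of 6 weeks. Without that library the differences were 0.63 (SE 0.77) and 1.05 (SE 0.70), each with an adjusted p of 1, and both calls were also lost when any 1 luminal library of 4 weeks was left out (adjusted p from 0.171 to 0.247 for *Ccl2* and from 0.100 to 0.158 for *Ccl7*). In the 2 groups alone the adjusted p-values were 0.523 and 0.497. Library 2 held 1235 CPM of summed endothelial markers and 1604 CPM of summed fibroblast markers, beside 135 and 36.5 CPM in library 1, and its summed luminal markers were 7332 CPM, beside 16097 to 20350 CPM in *Cdkn1b*+/+ luminal libraries of that age. The part of these cells in the levels of *Ccl2* and *Ccl7* was not tested. *Ccl19* had 5, 4 and 3 counts at 4 weeks and 6 and 164 counts at 6 weeks (5.32, SE 1.74, adjusted p = 0.267), and *Ccl5* 1, 1 and 4 counts and then 8 and 138 counts (6.09, SE 2.05, adjusted p = 0.301). Library 2 carried these levels too. *Ccl20* differed by 2.26 (SE 1.31, adjusted p = 0.717), *Cxcl1* by -1.14 (SE 0.62, adjusted p = 0.671), *Cxcl2* by -1.88 (SE 0.82, adjusted p = 0.518) and *Cxcl12* by -1.0 (SE 0.44, adjusted p = 0.518). Of the further ligands *Cxcl9* was called (5.36, SE 1.11, adjusted p = 0.0447).

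In *Cdkn1b*-/- basal cells 0 of 10 were called between the ages by edgeR, beside 0% of genes, with 1 at an unadjusted p under 0.05 and 0 called by DESeq2, which called 12 genes in all. *Ccl7* stood at 118 and 52.6 CPM at 4 weeks and at 32.1 and 15.6 CPM at 6 weeks (-2.15, SE 1.02, edgeR adjusted p = 1.00), without overlap. *Ccl2* stood at 748 and 292 CPM and then 206 and 227 CPM (-1.61, SE 1.04, adjusted p = 1.00), *Cxcl1* at 5677 and 2507 CPM and then 2809 and 2087 CPM (-1.06, SE 0.66, adjusted p = 1.00), and *Ccl19* at 5.31 and 4.41 CPM and then 4.00 and 0.698 CPM (-1.27, SE 1.73, adjusted p = 1.00). *Ccr7* had 0 and 7 counts and then 19 and 0 counts (2.00, SE 2.58, adjusted p = 1.00). *Cxcl12* stood at 636 and 928 CPM and then 443 and 497 CPM.

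The comparison of genotypes at 4 weeks gave no call. In basal cells 0 of 9 members were called by edgeR, beside 0% of genes, with 1 at an unadjusted p under 0.05 and 0 called by DESeq2, which called 1 gene in all. In luminal cells 0 of 9 were called by edgeR, beside 0% of genes, with 3 at an unadjusted p under 0.05 and 0 called by DESeq2, of any gene. *Ccl19* did not overlap in basal cells, at 5.31 and 4.41 CPM in *Cdkn1b*-/- and 0.680, 2.63 and 1.20 CPM in *Cdkn1b*+/+ libraries (1.89, SE 0.88, edgeR adjusted p = 1.00). *Ccl2* stood at 748 and 292 CPM beside 415, 176 and 149.8 CPM in basal cells (1.37, SE 0.62, adjusted p = 1.00) and *Ccl7* at 118 and 52.6 CPM beside 35.2, 56.0 and 53.8 CPM (1.10, SE 0.53, adjusted p = 1.00), both overlapping. *Ccr7*, with 0 and 7 counts in *Cdkn1b*-/- basal cells, lay just below the *Cdkn1b*+/+ libraries (-1.47, SE 1.73, adjusted p = 1.00). In luminal cells *Cxcl1* did not overlap, at 22493, 13104 and 8636 CPM beside 6978, 5586 and 7572 CPM (1.34, SE 0.53, adjusted p = 0.854). *Ccl2* stood at 74.8, 33.7 and 42.5 CPM beside 13.9, 16.8 and 36.6 CPM (1.37, SE 0.57), *Ccl7* at 11.8, 5.11 and 7.43 CPM beside 3.47, 2.71 and 6.55 CPM (1.11, SE 0.50), *Cxcl2* at 1556, 441 and 856 CPM beside 309, 485 and 676 CPM (1.16, SE 0.63) and *Ccl19* at 0.329, 0.179 and 0.204 CPM beside 0, 0.0602 and 0.260 CPM (1.23, SE 1.00), each with an adjusted p of 0.854 and with overlapping libraries. *Ccr7* was at 3.94, 0 and 3.41 CPM in *Cdkn1b*-/- luminal cells, as uneven as in *Cdkn1b*+/+ ones. *Cxcl12* overlapped between genotypes in both cell types, at 198, 184 and 329 CPM in luminal cells of *Cdkn1b*-/- rats.

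At 6 weeks, in basal cells 0 of 9 members were called by edgeR, beside 0% of genes, with 2 at an unadjusted p under 0.05 and 1 called by DESeq2, which called 330 genes in all. *Cxcl2* stood at 24.1 and 11 CPM in *Cdkn1b*-/- and 174, 47.0 and 98.6 CPM in *Cdkn1b*+/+ basal libraries, without overlap (-2.69, SE 0.82, edgeR adjusted p = 0.408, DESeq2 adjusted p = 0.0324). *Cxcl1* stood at 2809 and 2087 CPM beside 7949, 2695 and 8367 CPM (-1.48, SE 0.58, adjusted p = 0.519) and *Ccl20* at 6.45 and 3.0 CPM beside 12, 5.86 and 25.8 CPM (-1.74, SE 1.80, adjusted p = 0.869), both overlapping. *Ccr7* had 19 and 0 counts beside 0 in each of the 3 *Cdkn1b*+/+ libraries, at least 8.39-fold higher in pooled counts, all of them from *Cdkn1b*-/- library 1. *Cxcl12* did not overlap, at 443 and 497 CPM beside 346, 180.4 and 242 CPM, nor did *Cx3cl1*, at 145 and 113 CPM beside 102, 35.1 and 58.7 CPM, and neither passed an unadjusted p of 0.05. Fibroblast sums of these libraries were 921 and 739.6 CPM beside 138, 31.1 and 91.7 CPM, and sums of basal markers 11890.5 and 14959.8 CPM beside 7069.8, 8451.99 and 5527 CPM. Neither overlapped between genotypes, and their part in the levels of *Cxcl12* was not tested.

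In luminal cells of 6 weeks 0 of 9 were called by edgeR, beside 0% of genes, with 3 at an unadjusted p under 0.05 and 3 called by DESeq2, which called 1332 genes in all. *Ccl2* stood at 100.1 and 2872 CPM in *Cdkn1b*-/- and 16.6 and 5.55 CPM in *Cdkn1b*+/+ libraries (7.45, SE 1.56, edgeR adjusted p = 0.129), and *Ccl7* at 21.5 and 773 CPM beside 2.63 and 1.14 CPM (8.09, SE 1.62, adjusted p = 0.129). *Cxcl12* stood at 217 and 56.2 CPM beside 31.9 and 15.0 CPM (2.51, SE 0.58, adjusted p = 0.135). None of these 3 overlapped, but with 2 libraries on each side a gene often separates by chance. The share of all genes that did so is not given. Both *Cdkn1b*-/- libraries stood apart in other markers. Endothelial sums were 135 and 1235 CPM beside 0.303 and 5.93 CPM in *Cdkn1b*+/+ libraries, leukocyte sums 352 and 879 CPM beside 21.0 and 105 CPM, and sums of 15 myeloid markers 827 and 1395 CPM beside 155 and 234 CPM. The part of these cells in the 3 differences was not tested. Library 2 of *Cdkn1b*-/- luminal cells, described above, set the size of the first 2, and without it the differences were 3.05 for *Ccl2* (SE 0.72, adjusted p = 0.298), 3.37 for *Ccl7* (SE 0.94, adjusted p = 0.336) and 3.06 for *Cxcl12* (SE 0.50, adjusted p = 0.176). Without library 1 instead, *Ccl2* (8.40, adjusted p = 0.00220) and *Ccl7* (9.06, adjusted p = 0.00169) were called. *Ccl19* stood at 0.482 and 17.7 CPM beside 0 and 0.456 CPM (5.52, SE 2.90, adjusted p = 0.372), *Ccl20* at 1.36 and 12.3 CPM beside 81.4 and 0.228 CPM (-2.21, SE 1.93, adjusted p = 0.577) and *Cxcl2* at 572 and 72.0 CPM beside 854 and 492 CPM (-1.16, SE 0.81, adjusted p = 0.490). *Ccl5* had 8 and 138 counts beside 0 in both *Cdkn1b*+/+ libraries, at least 51.6-fold higher in pooled counts and at least 4.93-fold without library 2. *Ccr7* stood at 11.6 and 0 CPM beside 0 and 8.22 CPM, with most of it in the library of each genotype that had the higher lymphoid sum, 19.1 CPM beside 2.58 and 2.36 CPM beside 0.303. The genotype comparisons and the comparisons of ages share libraries and are not independent of each other.

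In the E2 experiment the cell types again parted in *Cxcl2*. It stood at 21.6 and 18.4 CPM in control and 32.6 and 19.0 CPM in E2-treated ACI basal libraries, and at 717 and 176 CPM and then 262 and 79.4 CPM in ACI luminal ones. The BN pools held 27.9 CPM (control) and 143 CPM (E2) in basal and 2009 and 2223 CPM in luminal cells. Within each animal or pool the luminal library was the higher. With strain and treatment as terms, basal cells differed from luminal cells by -4.14 (SE 0.66, edgeR adjusted p = 0.0137). *Cxcl2* was the single 1 of 10 called, beside 1.66% of the 13335 genes tested, and the call was lost without ACI control basal library 2 (adjusted p = 0.0510). With the animal or pool as a block *Ccl2* was called too (2.84, adjusted p = 0.0403), whereas without the block it differed by 2.06 (SE 0.96, adjusted p = 0.318). *Ccl7* differed by 2.32 (SE 0.98, adjusted p = 0.274), *Cxcl12* by 1.72 (SE 0.71, adjusted p = 0.263), *Cx3cl1* by -1.82 (SE 0.73, adjusted p = 0.250), *Ccl19* by 4.58 (SE 2.42, adjusted p = 0.389), *Ccr7* by 2.17 (SE 1.28, adjusted p = 0.453) and *Ccl5* by 1.07 (SE 2.5, adjusted p = 0.899). *Cxcl17* (-9.57, SE 1.65, adjusted p = 0.0217) and *Icam1* (1.23, SE 0.27, adjusted p = 0.0461) were called among the further genes.

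**Figure D5:**
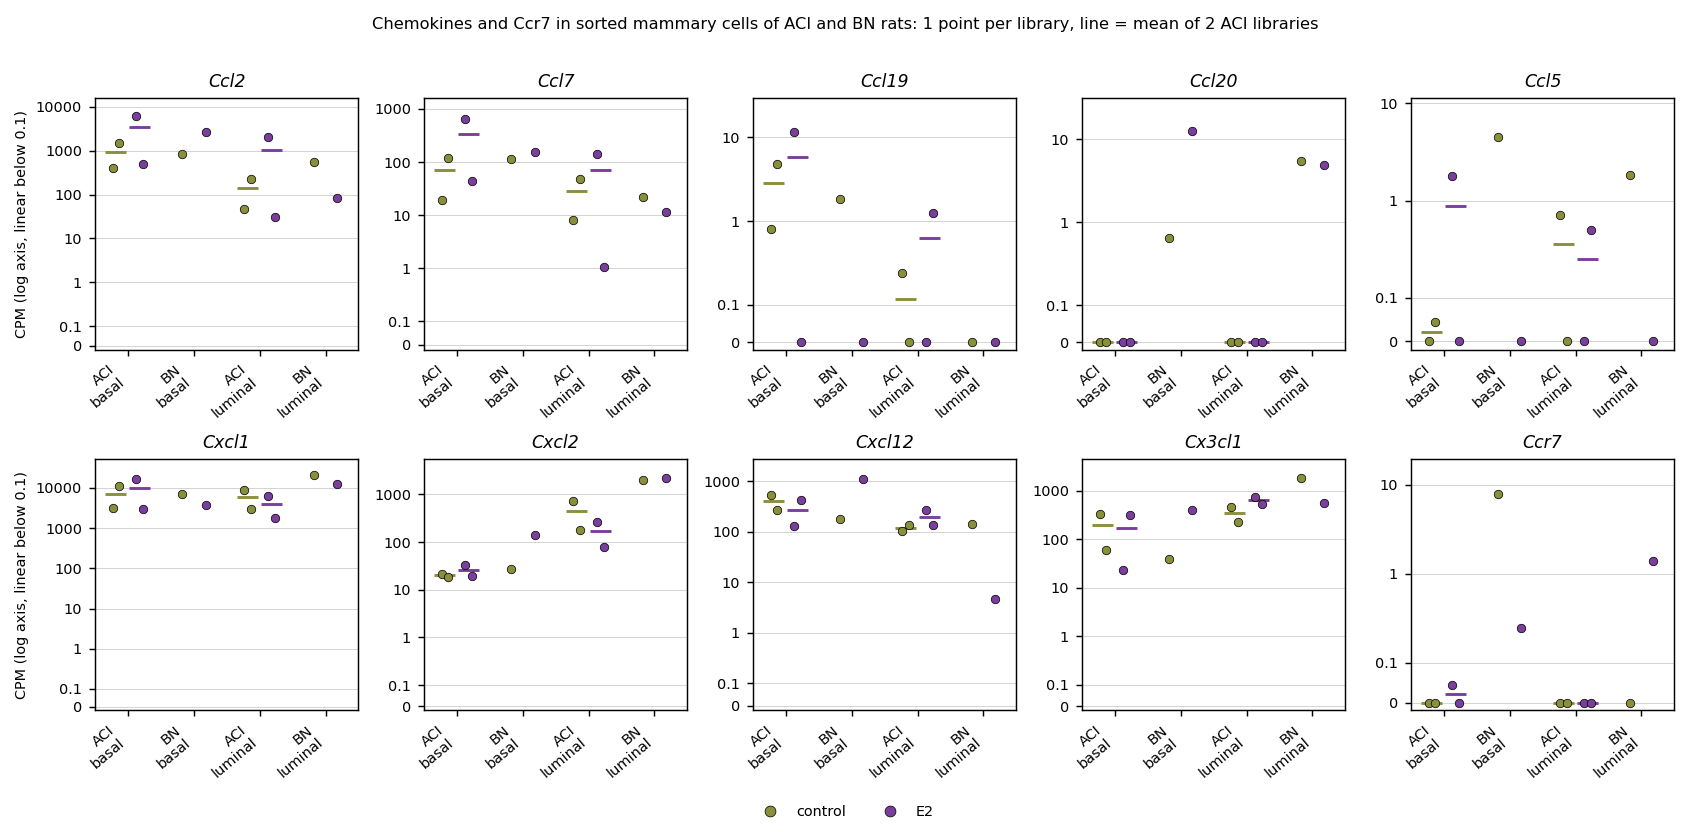
Level of each gene in the E2 experiment in CPM (log axis, linear below 0.1), by strain and cell type on the horizontal axis, with 1 point per library, control in olive, E2 in purple and a line at the mean of the 2 ACI libraries. *Ccl20* is at 0 in the 8 ACI libraries and between 0.653 and 12.6 CPM in the 4 BN libraries, and the luminal points of *Cxcl2* are highest in BN.

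E2 treatment gave no call. In basal cells 0 of 10 were called by edgeR, beside 0% of the 12265 genes tested, with 0 at an unadjusted p under 0.05 and 0 called by DESeq2, which called 99 genes in all. In luminal cells 0 of 10 were called by edgeR, beside 0% of the 12670 genes tested, with 0 at an unadjusted p under 0.05 and 0 called by DESeq2, which called 130 genes in all. *Ccl2* stood at 393 and 1458 CPM in control and 6238 and 492 CPM in E2-treated ACI basal libraries and at 851 and 2715 CPM in the BN control and E2 pools (1.66, SE 0.99, edgeR adjusted p = 1.00). *Ccl7* stood at 19.5 and 121 CPM, then 639 and 44.2 CPM, and at 113 and 158 CPM in BN (1.56, SE 1.20, adjusted p = 1.00). The groups overlapped for both. ACI E2 basal library 1, the source of the highest values, had 1999 CPM of summed basal markers beside 17503 CPM in library 2, and without it the differences were 0.05 for *Ccl2* (SE 0.94) and -0.37 for *Ccl7* (SE 0.86). In luminal cells *Ccl2* stood at 46.7 and 228 CPM in control and 2018 and 30.6 CPM in E2-treated ACI libraries and at 556 and 84.9 CPM in BN (1.16, SE 1.87, adjusted p = 0.999). The library with 2018 CPM held 3599 CPM of summed fibroblast markers, beside 35.3 to 586 CPM in the other luminal libraries, and without it the difference was -2.44 (SE 0.69). *Cxcl2* differed by -1.22 in luminal cells (SE 0.85, adjusted p = 0.999). *Cxcl1* stood at 3139, 11157, 16572 and 3047 CPM in ACI basal libraries, controls first, and at 8647, 2985, 6148 and 1796 CPM in ACI luminal ones, and treatments overlapped in both.

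*Ccl20* was the member that most separated the strains. It had 0 counts in all 8 ACI libraries of the E2 experiment, which allows up to 3 counts over each group, and 15 and 257 counts in BN basal and 139 and 123 counts in BN luminal libraries (0.653, 12.6, 5.57 and 4.87 CPM). In pooled counts ACI cells were thus at least 189.6-fold lower in basal and at least 139-fold lower in luminal libraries. The first rests on the BN E2 pool, without which it is at least 19.8-fold. In ACI rats of the genotype experiments *Ccl20* had at least 2 counts in each of the 36 libraries. Between strains, in basal cells 0 of 10 were called by edgeR, beside 0% of genes, with 1 at an unadjusted p under 0.05 and 0 called by DESeq2, which called 20 genes in all. In luminal cells 0 of 10 were called by edgeR, beside 0% of genes, with 4 at an unadjusted p under 0.05 and 1 called by DESeq2, which called 399 genes in all. *Cxcl2* was lower in ACI than in BN luminal cells by -3.56 (SE 0.87, edgeR adjusted p = 0.985, DESeq2 adjusted p = 0.00757) and in basal cells by -1.71 (SE 0.67, adjusted p = 1). *Cxcl1* stood at 20955 and 12777 CPM in BN luminal cells, above all 4 ACI luminal libraries (-2.26, SE 0.77, adjusted p = 0.985), and at 7178 and 3772 CPM in BN basal cells. *Cx3cl1* stood at 1802 and 546 CPM in BN and 457, 224, 744 and 523 CPM in ACI luminal cells, with overlap (-1.68, SE 0.62, adjusted p = 0.985). BN has 1 pool per treatment, so a strain difference here rests on 2 BN libraries per cell type.

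The other members were uneven in this experiment. *Cxcl12* stood at 533, 269.6, 129 and 416 CPM in ACI basal libraries, controls first, and 182 and 1098 CPM in BN, and at 101, 133, 266 and 133 CPM in ACI luminal libraries and 143 and 4.63 CPM in BN (1.19 between strains in luminal cells, SE 1.25, edgeR adjusted p = 0.986). *Cx3cl1* stood at 325, 58.5, 22.7 and 314 CPM in ACI basal and 38.7 and 393 CPM in BN basal libraries. *Ccr7* was at 0 or 1 count in the 8 ACI libraries and at 180, 5, 0 and 35 counts in BN, most of it in the control basal pool (7.84 CPM), which had a lymphoid sum of 16.9 CPM beside 0 to 0.546 CPM in the other basal libraries. The same pool held the highest *Ccl5* of the experiment, at 4.53 CPM. *Ccl5* was at 0 in 6 of the 12 libraries and *Ccl19* in 6, and for these low genes the edgeR differences between strains or treatments rested on single libraries.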

How the data were processed

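RNA of sorted cells was amplified with a low-input kit and sequenced as single-end reads. Per the methods of the study and the submitters' processing notes, reads were aligned with STAR 2.5.1b to the rat genome build rn6 and assigned to RefSeq genes with HTSeq. The deposited files hold whole-number counts per gene, which the authors had not normalized, and rows of unassigned reads (47.1% to 77.0% of reads) were kept out of library sizes. CPM were computed from the counts of gene rows. Depth was 21545344 to 33859550 counts at 9 weeks, 14674040 to 23045345 at 4 weeks, 7985619 to 16390460 at 6 weeks and 13659389 to 25280421 in the E2 experiment. Counts carry no molecular identifiers, so floors cover counting error only.

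Groups came from the labels. Counts were tested with edgeR 4.0.16 (R 4.3.3), with TMM normalization, a filter on low counts by group, the quasi-likelihood test and Benjamini-Hochberg adjustment over all genes tested, and a call at an adjusted p under 0.05. The SE is the log2 fold change divided by the square root of its F statistic. The fit of 9 weeks held 16 libraries, that of 4 weeks 11, that of 6 weeks 9, that of ages 20 and that of cell types in the E2 experiment 12, with strain and treatment as terms. Fits were tested on simulated data. A fold against a group at 0 was bounded with 3 counts over that group, from counts and totals pooled over each group, and bounded again with each library left out, an alternative added after seeing the data. All 10 genes were named with their values, and log2 fold changes were given where an adjusted or unadjusted p was under 0.05 or the absolute log2 fold change over 1. Of further ligands, receptors and NF-κB genes, up to 3 called per list and comparison were named in order of p. Genes most alike were ranked by Pearson's r among genes with a mean log2 CPM over 2.

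The 10 genes, the lists and the comparisons were chosen with earlier results of these data known, and the motifs with some promoters already seen. Alternatives were DESeq2 1.42.0, RLE size factors, all genes without a filter, the compared libraries alone, joint fits, summed LP libraries, each library left out in turn (48 fits) and a replicate block. The numbers of 9 weeks pair libraries of 1 genotype: r of their deviations was 0.261 to 0.803 over 12 pairs, against -0.365 to 0.0014 over 16 pairs between genotypes. From 4 weeks on, the titles name the animal or pool. Peak lists of progesterone receptor binding were not used here. Promoters came from RefSeq (GRCr8), a different build from that of the counts, so no position is given for a count.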

Additional observations from a re-analysis of the deposited data

Results flagged for a closer look

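In LP, where 4 libraries per genotype allowed a test for a value far from the others (Dixon's test of its gap, at 95% confidence), 4 of 20 groups passed, and chance passes about 1 in 20. *Ccl19* at 2.31 CPM and *Ccr7* at 1.53 CPM were highest in the same library, Cd49b+ number 2 of *Cdkn1b*-/- rats. *Ccl20* at 0.342 CPM and *Ccr7* at 0.228 CPM were highest in PNA+ number 1 of *Cdkn1b*+/+ rats, on 9 and 6 counts. Between 4 and 6 weeks *Ccl7* moved in opposite directions in luminal cells of the 2 genotypes, by -1.18 in *Cdkn1b*+/+ (edgeR adjusted p = 0.528) and by 5.71 in *Cdkn1b*-/- rats (adjusted p = 0.0190), with every library of 1 age on 1 side of the other age in each genotype. Without *Cdkn1b*-/- luminal library 2 of 6 weeks the second was 1.05 (adjusted p = 1). That difference between genotypes was not tested.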

How the results depend on the processing

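Of the recomputed counts of called members, 220 stayed within 1.5 times the main count, 27 were higher and 20 lower. The counts that follow are of members alone, without the share of all genes called under each setting. DESeq2 called 4 members for genotype in basal cells and 2 in LP at 9 weeks, 5 for basal cells against LP, 2 for LP against mature luminal cells, 1 for the difference of genotype effects between basal cells and LP, 1 and 3 for genotype in basal and luminal cells at 6 weeks, 5 for cell type at 6 weeks, 3 and 2 for age in *Cdkn1b*+/+ basal and luminal cells, and 1 for strain in luminal cells. With only the compared libraries, the counts were 0 for genotype in LP, 1 for LP against mature luminal cells, 3 for cell type at 6 weeks, 2 for age in *Cdkn1b*+/+ basal cells and 0 in *Cdkn1b*-/- luminal cells. Summed LP libraries gave 0 for genotype and 1 for basal cells against LP. With no filter, genotype in luminal cells and cell type at 6 weeks gave 2 and 3, and with both ages in 1 fit 3 and 5. The replicate block gave 7 for basal cells against LP, 5 for LP against mature luminal cells and, with the animal or pool, 2 for cell type in the E2 experiment, and moved no other count by over 1.5 times. Numbers crossed between genotypes gave adjusted p = 0.00944 for *Ccr7* in LP, against 0.0274 uncrossed.

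Leaving out 1 library gave 0 to 1 for genotype in LP, 1 to 4 for basal cells against LP, 1 to 2 against mature luminal cells, 0 to 3 for the difference of effects, 0 to 2 for genotype in luminal cells and 0 to 1 for cell type at 6 weeks, 1 to 2 and 0 to 2 for age in *Cdkn1b*+/+ basal and luminal cells, 0 to 6 in *Cdkn1b*-/- luminal cells and 0 to 1 for cell type in the E2 experiment.

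Of the log2 fold changes with an absolute value over 1 or an unadjusted p under 0.05, 13 turned their sign, in 18 combinations of a difference and a setting, none of them called. Over the libraries left out in turn, *Ccl20* at 6 weeks ran from -4.99 to 5.09 for genotype in luminal cells and from -2.31 to 5.94 for cell type (0.73 with the animal block), and between ages from -2.49 to 5.85 in *Cdkn1b*+/+ luminal cells, each turned by leaving out *Cdkn1b*+/+ luminal library 1 of 6 weeks. Without luminal library 2 of that group the age differences of *Ccl19* and *Ccr7* turned, with ranges of -3.84 to 2.80 and -8.07 to 1.99. In *Cdkn1b*-/- rats *Ccr7* ran from -4.38 to 6.35 between ages in basal cells (turned without basal library 1 of 6 weeks) and *Ccl20* from -0.46 to 3.15 in luminal cells (turned without luminal library 2 of 6 weeks). For E2 treatment, *Ccl7* in basal cells ran from -0.37 to 2.32 (turned without ACI E2 library 1), *Ccl5* in basal cells from -7.39 to 5.00 (turned without that library, and at -2.06 and -1.11 without either ACI control) and *Ccl2* in luminal cells from -2.44 to 2.48 (turned without ACI E2 library 1, and at -0.20 without ACI control library 1). For strain, *Ccl5* in basal cells ran from -7.65 to 7.30 (turned without the BN control pool) and *Cxcl12* in luminal cells from -0.53 to 4.63 (turned without the BN E2 pool). For cell type in the E2 experiment *Ccl5* ran from -2.63 to 2.34 (turned without ACI E2 basal library 1, and at -0.20 without the BN control basal pool). The causes were not tested. *Ccl19*, *Ccl20*, *Ccl5* and *Ccr7* often lie near the floor of 3 counts, and 2 libraries per group limit the calls.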
